A study of Mus musculus with 48 samples.

Results

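Nascent RNA of 10 genes for Trim28, the enzymes that methylate histone H3 at lysine 9, heterochromatin protein 1 and the factors that act with it was measured in mouse embryonic stem cells. The genes are Trim28, Setdb1, Suv39h2, Ehmt1, Ehmt2, Cbx1, Cbx3, Cbx5, Mphosph8 and Morc2a. They were taken by name from a deposited matrix of read counts for 55376 genes, and all 10 were found in it. Their expression values played no part in the rule that picked them.

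The cells were the TCF2.2 line, kept in serum-free 2i medium and labelled as strain C57BL/6. The first treated group received 10 µM BRM014, an inhibitor of the ATPases BRG1 and BRM of the SWI/SNF remodelling complexes, for 3 h, and its control received the solvent DMSO for as long. The other treated group was transduced with a lentivirus carrying an shRNA against Chd4, an ATPase of the NuRD complex, and its control with a lentivirus carrying a scrambled shRNA. Both shRNA groups then spent 24 h in medium with 1.5 µg/mL puromycin. All cells took up 500 µM 4-thiouridine for 5 min before lysis, and the labelled RNA was pulled down, so the counts reflect recent synthesis. There were 2 libraries per group, called r1 and r2, or r1 and r4 for the Chd4 shRNA and r1 and r3 for the scrambled shRNA. The study's design text calls them biological duplicates, and they come from 1 cell line. Pol II and histone variant occupancy was also mapped and was not analysed here.

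Methylation of histone H3 at lysine 9 marks silent chromatin and is bound by the HP1 proteins, which compact it. Trim28, also called KAP1, is a scaffold that KRAB zinc finger proteins bring to DNA. It gathers the methyltransferase Setdb1 and HP1, and in mouse embryonic stem cells this system keeps many endogenous retroviruses silent. The HUSH complex, which contains Mphosph8, spreads and maintains the same mark and works with the ATPase MORC2.

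The libraries differed in depth and in background. Gene counts summed to 12977098 and 14582377 with BRM014, 16813866 and 17128981 with DMSO, 6982354 and 7461362 with the Chd4 shRNA, and 11298835 and 12026026 with the scrambled shRNA. Background was read from 1435 olfactory and vomeronasal receptor genes, which are mostly silent outside sensory neurons. It came to 6.78 and 7.21 counts per kb of exon in the libraries labelled Chd4 shRNA, against 1.32 and 1.84 in the scrambled ones. It was 1.66 and 2.64 with BRM014 and 2.63 and 2.66 with DMSO. In the libraries labelled Chd4 shRNA, Chd4 itself was counted 730 and 760 times, against 806 and 618 times in the scrambled ones, a log2 change of 0.57 ± 0.16 (SE; edgeR adjusted p = 0.00532, but 0.39 with an edgeR adjusted p of 0.125 without scrambled r3). The knockdown is thus not visible in nascent Chd4 counts. An shRNA acts on finished transcripts, and these data do not measure them.

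Changes are log2 fold changes from edgeR's quasi-likelihood test over 8272 genes whose mean count was at least 10-fold above background, scaled by TMM among them. The threshold for a call was 0.05 on p-values adjusted by Benjamini and Hochberg's method over all 8272. They are relative to these other expressed genes and say nothing of amounts per cell. Of the 10 genes, 8 passed this rule. Suv39h2, at 7.57-fold, and Ehmt1, at 8.53-fold above background, did not, and are given from a fit of the 17664 genes at least 3-fold above background. In bulk RNA, fewer transcribing cells and less RNA made per cell cannot be told apart.

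Background made up more of the counts in the libraries labelled Chd4 shRNA. It would account for 3.85% and 3.90% of their Trim28 counts and for 37.4% and 41.8% of their Suv39h2 counts. The other 8 genes lay between 7.86% and 27.2% there. In the other 6 libraries the 10 genes ranged from 0.256% to 10.9%.

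**Figure D1:**
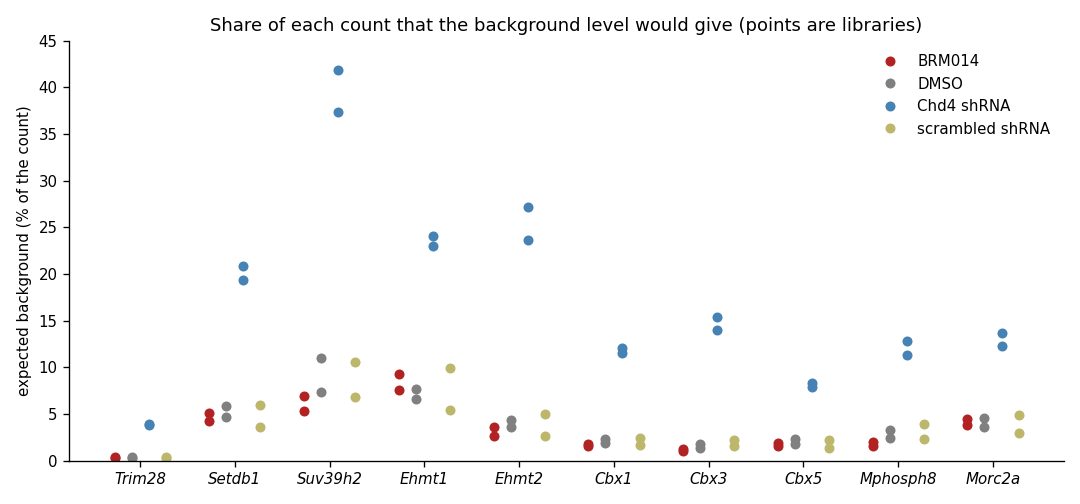
The share of each gene's count that the background level of its library would give, in percent, for the 10 genes (x axis). Points are libraries, coloured by group, and the Chd4 shRNA libraries lie above the other 6 for every gene.

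Sequences of 4 of the genes are shown because they carry the changes described below: Trim28 fell, and Setdb1, Mphosph8 and Morc2a rose, in the libraries labelled Chd4 shRNA. Each run holds the 250 bases before the RefSeq start site on mm10 (GRCm38.p6), 5′ to 3′ on the gene's strand. Capitals mark matches to 8 short motifs, searched on both strands. They are the SP/KLF box GGGCGG, the box named CCAAT for its letters, the TATA box TATAAA, the ETS core CCGGAAG, the NRF1 site GCGCATGC, the YY1 core AAGATGGC, the cAMP response element TGACGTCA and the E-box CACGTG. No motif contains another.
Trim28 (chr7:13023902-13024151, + strand): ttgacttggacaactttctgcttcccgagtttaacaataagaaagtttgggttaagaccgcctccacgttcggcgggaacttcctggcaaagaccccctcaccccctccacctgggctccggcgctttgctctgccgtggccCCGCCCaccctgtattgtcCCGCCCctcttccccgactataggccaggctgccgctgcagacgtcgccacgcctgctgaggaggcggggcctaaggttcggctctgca
Setdb1 (chr3:95357203-95357452, - strand): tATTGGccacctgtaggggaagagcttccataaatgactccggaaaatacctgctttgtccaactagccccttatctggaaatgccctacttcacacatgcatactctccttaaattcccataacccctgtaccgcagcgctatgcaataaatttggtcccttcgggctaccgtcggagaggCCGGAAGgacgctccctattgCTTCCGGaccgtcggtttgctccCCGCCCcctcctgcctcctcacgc
Mphosph8 (chr14:56667998-56668247, + strand): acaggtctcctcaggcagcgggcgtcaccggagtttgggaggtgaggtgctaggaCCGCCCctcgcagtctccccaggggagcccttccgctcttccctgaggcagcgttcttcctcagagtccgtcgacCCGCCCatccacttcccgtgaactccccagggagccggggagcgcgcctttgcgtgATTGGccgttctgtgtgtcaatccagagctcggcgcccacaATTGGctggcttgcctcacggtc
Morc2a (chr11:3649187-3649436, + strand): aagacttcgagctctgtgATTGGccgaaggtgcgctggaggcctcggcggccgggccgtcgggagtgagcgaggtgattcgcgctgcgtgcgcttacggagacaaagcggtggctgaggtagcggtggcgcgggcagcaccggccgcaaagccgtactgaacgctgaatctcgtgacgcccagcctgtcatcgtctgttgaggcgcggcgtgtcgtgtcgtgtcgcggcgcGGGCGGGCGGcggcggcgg

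Trim28 held 2 SP/KLF boxes, 108 and 89 bases before its start. Setdb1 held 1 such box, a CCAAT box at the far end and 2 ETS cores, 68 and 47 bases before the start. Mphosph8 held 2 SP/KLF boxes and 2 CCAAT boxes, and Morc2a 2 overlapping SP/KLF boxes and 1 CCAAT box. An SP/KLF box occurs in 32.7% of the 32851 windows of this kind in the mouse table, a CCAAT box in 33.8% and an ETS core in 6.91%. The windows were rich in CpG: Morc2a had 39, Mphosph8 19, Trim28 17 and Setdb1 13, against a median of 6 over all windows. Morc2a has a second window in the table, at a start within its row, with 0 CpG and a TATA box, and the one shown lies at the start of the row. All 10 genes had a window in the table, and none of the 4 shown held a TATA box, an NRF1, YY1 or cAMP element or an E-box in these letters.

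Trim28 was by far the most abundant of the 10 and the only one of the 8 fitted genes called lower. In CPM per kb, the count scaled to library size and then divided by the length of exon, it stood at 28.4 and 30.1 in the libraries labelled Chd4 shRNA, against 58.9 and 56.9 in the scrambled ones. It stood at 45.8 and 40.3 with BRM014 and at 40.0 and 47.2 with DMSO. Both Chd4 shRNA libraries lay below the other 6, both scrambled libraries lay above all others, and BRM014 overlapped DMSO. The log2 change was -0.99 ± 0.14 with the Chd4 shRNA, a fold of 0.505 (edgeR adjusted p = 1.13e-05), and 3.95% of the 8272 genes had a lower value. With BRM014 it was -0.02 ± 0.14 (edgeR adjusted p = 0.967).

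The fall of Trim28 was called in each of the 8 fits that left out 1 library, from -1.03 to -0.92, and at -0.80 after background was subtracted. With library sizes from the ERCC spike-in RNAs it was not called, at -0.36 for plain sums and -0.79 for TMM-scaled totals. The Trim28 row of the matrix starts at 12999114 on chromosome 7, well before the RefSeq start at 13024152. The zinc finger gene Zbtb45 lies inside that stretch on the other strand, with a mean of 78.1 counts against 2148 for Trim28.

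**Figure D2:**
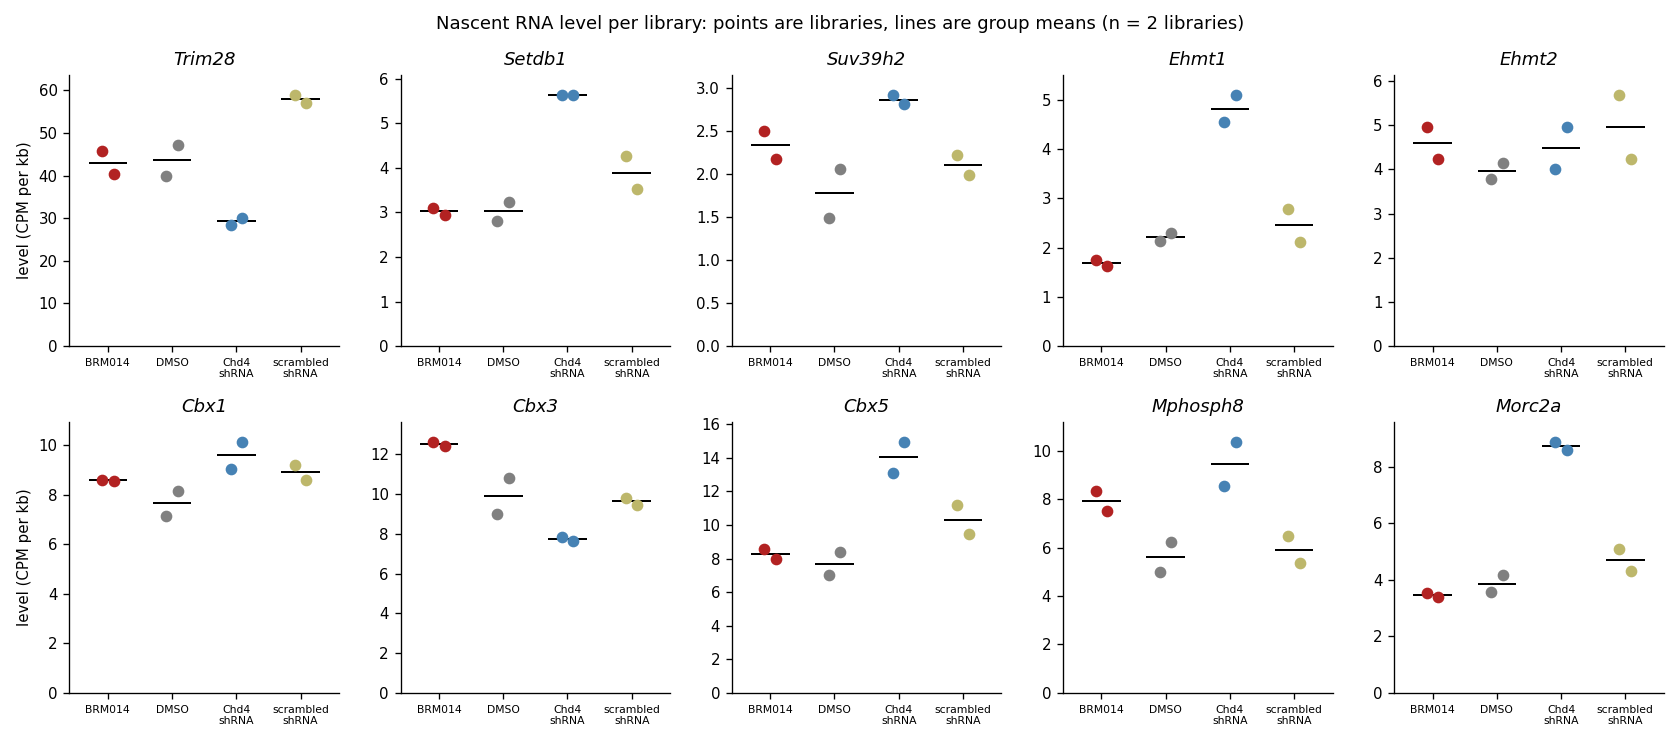
Level of each of the 10 genes in CPM per kb (y axis, from 0) by group (x axis). Points are libraries and lines are group means (n = 2). Trim28 is lowest, and Setdb1, Suv39h2, Ehmt1, Cbx5, Mphosph8 and Morc2a are highest, in the Chd4 shRNA libraries. Background is not subtracted.

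Among the methyltransferases, Setdb1 moved the opposite way to its scaffold. Setdb1, which trimethylates the lysine in euchromatin and at retroviral repeats, stood at 5.64 and 5.64 CPM per kb in the libraries labelled Chd4 shRNA, against 4.26 and 3.53 in the scrambled ones. With BRM014 it stood at 3.10 and 2.95, and with DMSO at 2.82 and 3.23. The Chd4 shRNA libraries were above all others, and BRM014 overlapped DMSO. Its log2 change was 0.53 ± 0.14 with the Chd4 shRNA (fold 1.45, edgeR adjusted p = 0.00409) and -0.00 ± 0.13 with BRM014 (edgeR adjusted p = 0.999). Without scrambled r3 the rise was 0.40 and not called (edgeR adjusted p = 0.0855, the highest over the 8 fits that left out 1 library, with 0.000876 the lowest).

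Ehmt2, or G9a, forms with Ehmt1, or GLP, the main dimethylating enzyme of euchromatin. Ehmt2 stood at 4.02 and 4.96 CPM per kb in the libraries labelled Chd4 shRNA and 5.69 and 4.24 in the scrambled ones, and these groups overlapped. It stood at 4.95 and 4.24 with BRM014 and 3.78 and 4.14 with DMSO. Neither change was called: it was -0.15 ± 0.16 with the Chd4 shRNA (edgeR adjusted p = 0.504) and 0.21 ± 0.14 with BRM014 (edgeR adjusted p = 0.452). Among the 17664 genes it was called lower with the Chd4 shRNA, at -0.53 (edgeR adjusted p = 0.00661), and not called with BRM014, at 0.23 (edgeR adjusted p = 0.375).

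Ehmt1 did not follow its partner. Ehmt1 stood at 4.54 and 5.10 CPM per kb in the libraries labelled Chd4 shRNA, against 2.78 and 2.12 in the scrambled ones, and at 1.75 and 1.63 with BRM014, against 2.13 and 2.30 with DMSO. The groups lay apart in both comparisons, in opposite directions, with background not subtracted. Background would give 24.0% and 23.0% of the Ehmt1 counts in the libraries labelled Chd4 shRNA, against 5.43% and 9.86% in the scrambled ones. In the fit of 17664 genes the log2 change of Ehmt1 was 0.59 ± 0.15 with the Chd4 shRNA (edgeR adjusted p = 0.00123). The median there was 0.08 over all 17664 genes and -0.39 over the 8272, which do not hold Ehmt1. With BRM014 the change of Ehmt1 was -0.36 ± 0.14 and not called (edgeR adjusted p = 0.125). Without scrambled r3 the rise was 0.41 (edgeR adjusted p = 0.0558, against 0.000974 at the lowest of the 8 such fits).

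The ratio of Ehmt1 to Ehmt2 within a library does not depend on the scaling. In counts per kb it was 1.13 and 1.03 in the libraries labelled Chd4 shRNA, against 0.489 and 0.501 in the scrambled ones. With BRM014 it was 0.354 and 0.386, against 0.563 and 0.555 with DMSO. Thus Ehmt1 was about level with Ehmt2 under the Chd4 shRNA and well below it in the other 6 libraries. After background was subtracted the mean ratio was 1.11 ± 0.10 (SD, n = 2) with the Chd4 shRNA, against 0.475 ± 0.0000940 with the scrambled shRNA, and 0.350 ± 0.0187 with BRM014, against 0.541 ± 0.00337 with DMSO.

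Suv39h2, an enzyme of pericentric heterochromatin, had the lowest mean level of the 10 with DMSO and with either shRNA. It stood at 2.50 and 2.18 CPM per kb with BRM014, against 1.49 and 2.06 with DMSO, and at 2.92 and 2.81 in the libraries labelled Chd4 shRNA, against 2.22 and 1.99 in the scrambled ones. The treated libraries lay above their controls in both cases, with background not subtracted. Background would give 37.4% and 41.8% of the Suv39h2 counts in the libraries labelled Chd4 shRNA, against 6.79% and 10.5% in the scrambled ones. The fit with background subtracted did not hold Suv39h2. Neither change was called in the fit of 17664 genes, at 0.41 ± 0.15 with BRM014 (edgeR adjusted p = 0.099) and 0.06 ± 0.18 with the Chd4 shRNA (edgeR adjusted p = 0.816). Without DMSO r2 the BRM014 value was 0.64 and called (edgeR adjusted p = 0.0173, against 0.486 at the highest of the 8 such fits).

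The 3 HP1 genes split in the Chd4 comparison. Cbx5, which encodes HP1 alpha, stood at 13.1 and 15.0 CPM per kb in the libraries labelled Chd4 shRNA, against 11.2 and 9.44 in the scrambled ones. It stood at 8.54 and 7.96 with BRM014 and at 7.0 and 8.41 with DMSO. The Chd4 shRNA libraries were the highest of the 8, and BRM014 overlapped DMSO. Its log2 change with the Chd4 shRNA was 0.44 ± 0.14 (fold 1.36, edgeR adjusted p = 0.0165), and with BRM014 0.10 ± 0.14 (edgeR adjusted p = 0.760). The rise was not called without Chd4 shRNA r4, at 0.34 (edgeR adjusted p = 0.174), or without scrambled r3, at 0.32 (edgeR adjusted p = 0.185, the highest of the 8 such fits, with 0.00372 the lowest).

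Cbx3, which encodes HP1 gamma, a form also found along active genes, leaned the other way. It stood at 7.82 and 7.65 CPM per kb in the libraries labelled Chd4 shRNA, against 9.80 and 9.47 in the scrambled ones, and at 12.6 and 12.4 with BRM014, against 9.02 and 10.8 with DMSO. The Chd4 shRNA libraries were the lowest of the 8 and the BRM014 libraries the highest. Neither comparison was called: the log2 change was -0.32 ± 0.14 with the Chd4 shRNA (edgeR adjusted p = 0.0757) and 0.34 ± 0.13 with BRM014 (edgeR adjusted p = 0.116). It was called lower with the Chd4 shRNA at -0.70 among the 17664 genes (edgeR adjusted p = 0.000179), where the median of the 8272 was -0.39. Leaving out 1 DMSO library brought calls: the Chd4 shRNA value was -0.30 without DMSO r1 (edgeR adjusted p = 0.0382) and -0.32 without DMSO r2 (edgeR adjusted p = 0.0334), where the 8 such fits reached 0.253. The BRM014 value was 0.47 without DMSO r2 (edgeR adjusted p = 0.0148, against 0.440 at the highest).

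Reads of Cbx3 are uncertain because 8 rows of Cbx3 pseudogenes carry near-identical sequence. Their summed counts were 34.0% and 38.1% of the Cbx3 count in the libraries labelled Chd4 shRNA and 28.2% to 30.6% in the other 6. How reads with several alignments were counted is not given in the sources used here.

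Cbx1, which encodes HP1 beta, stood at 9.05 and 10.2 CPM per kb in the libraries labelled Chd4 shRNA and 9.23 and 8.60 in the scrambled ones, which overlapped. It stood at 8.61 and 8.56 with BRM014, against 7.15 and 8.18 with DMSO. Its log2 changes were 0.11 ± 0.14 (edgeR adjusted p = 0.575) and 0.16 ± 0.13 (edgeR adjusted p = 0.520), and neither was called.

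The make-up of HP1 transcription within a library shows the split without a scale. Of the summed counts per kb of the 3 genes, Cbx5 made up 43.7% and 45.7% in the libraries labelled Chd4 shRNA, against 37.1% and 34.3% in the scrambled ones. Cbx3 made up 26.1% and 23.3%, against 32.4% and 34.4%. With BRM014 Cbx3 made up 42.4% and 42.9%, against 38.9% and 39.4% with DMSO, while Cbx5 made up 28.7% and 27.5%, against 30.2% and 30.7%. Cbx5 was thus the largest share under the Chd4 shRNA and Cbx3 under BRM014 and DMSO. Cbx1 stayed between 28.9% and 31.3% in all 8 libraries.

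Both HUSH-linked genes of the 10, Mphosph8 and Morc2a, were higher in the libraries labelled Chd4 shRNA. Mphosph8, the chromodomain subunit of HUSH that binds methylated lysine, stood at 8.53 and 10.4 CPM per kb there, against 6.48 and 5.35 in the scrambled libraries. With BRM014 it stood at 8.34 and 7.52, against 5.01 and 6.21 with DMSO. The treated libraries lay above their controls in both comparisons. The log2 change was 0.68 ± 0.16 with the Chd4 shRNA (fold 1.60, edgeR adjusted p = 0.00147) and 0.49 ± 0.14 with BRM014 (fold 1.41, edgeR adjusted p = 0.0306). The rise with the Chd4 shRNA was called in each of the 8 fits that left out 1 library.

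The BRM014 rise of Mphosph8 was the only call among the 8 fitted genes in that comparison, and it was not stable. It was not called by DESeq2 (adjusted p = 0.111). It was also lost without BRM014 r1, at 0.42 (edgeR adjusted p = 0.235), BRM014 r2, at 0.59 (0.0829), DMSO r1, at 0.33 (0.216), or Chd4 shRNA r1, at 0.48 (0.0605). The lowest adjusted p over the 8 such edgeR fits was 0.00264.

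Morc2a, the mouse MORC2 gene, had the largest rise of the 8. It stood at 8.88 and 8.58 CPM per kb in the libraries labelled Chd4 shRNA, against 5.09 and 4.30 in the scrambled ones. It stood at 3.52 and 3.39 with BRM014 and at 3.55 and 4.17 with DMSO. The Chd4 shRNA libraries were the highest of all, and both BRM014 libraries lay just below those with DMSO. The log2 change was 0.89 ± 0.14 with the Chd4 shRNA (fold 1.86, edgeR adjusted p = 2.54e-05), and 93.8% of the 8272 genes had a lower value. It was called in each of the 8 fits that left out 1 library, from 0.78 to 1.05. With BRM014 it was -0.16 ± 0.14 (edgeR adjusted p = 0.550).

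**Figure D3:**
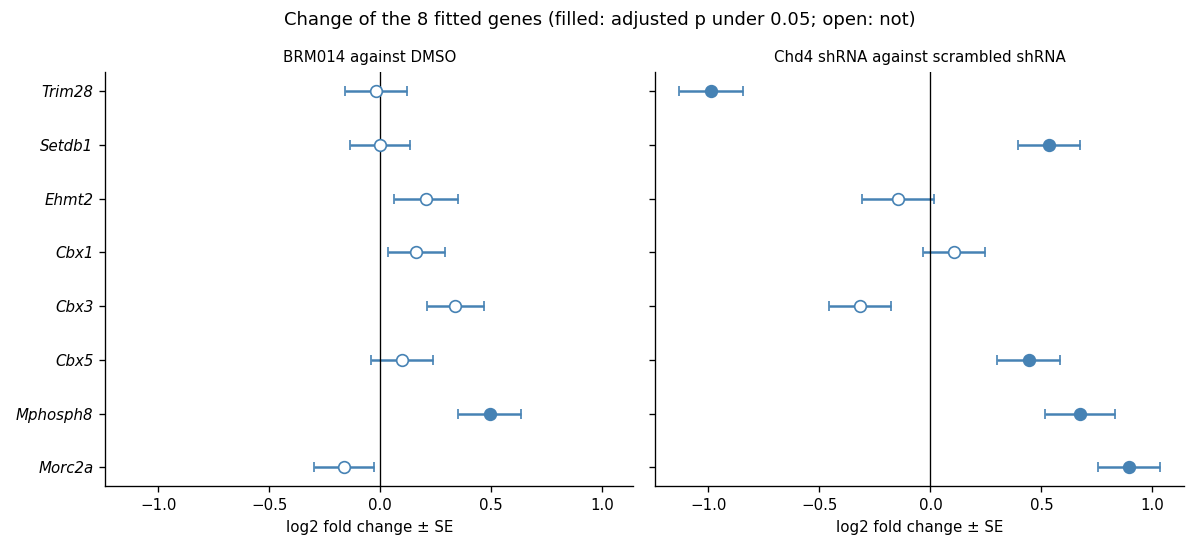
Log2 fold change with its SE (x axis) of the 8 fitted genes (y axis) for BRM014 against DMSO (left) and Chd4 shRNA against scrambled shRNA (right). Filled points have an adjusted p under 0.05: Mphosph8 on the left, and Trim28, Setdb1, Cbx5, Mphosph8 and Morc2a on the right.

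Counted together, 4 of the 8 fitted genes rose and 1 fell with the Chd4 shRNA. Over all 8272 genes, 19.4% were called higher and 20.5% lower, so calls were common in this comparison. That split depended on the scale: 48.7% of the calls were higher, against 97.9% with plain ERCC sums (2836 higher, 62 lower) and 90.5% with TMM-scaled ERCC totals (57 higher, 6 lower). The median change of the 8 was 0.27, beside -0.01 over the 8272. With BRM014, 1 of the 8 rose and 0 fell by edgeR. At an unadjusted p under 0.05, 2 were higher and 0 lower, and DESeq2 called 0 in either direction. Over all 8272 genes 3.12% were called higher and 4.63% lower. The median of the 8 was then 0.13, beside 0.01 over the 8272. Ehmt1 and Suv39h2 are read against the fit of 17664 genes, where 22.3% were called higher and 22.8% lower with the Chd4 shRNA and 2.85% higher and 4.32% lower with BRM014.

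The rises with the Chd4 shRNA, that of Morc2a among them, and the call of Trim28 depended on the scale. A change of scale moves all genes of a comparison by nearly the same amount, so it cannot test their order. When all genes that pass edgeR's default count filter, most of them near background, entered the TMM scaling, the median of the 8272 genes became -1.34, and all 8 were called lower. Setdb1 was then at -0.80, Cbx5 at -0.89, Mphosph8 at -0.66 and Morc2a at -0.44, while Trim28 was at -2.32. With no filter the median was -1.49 and all 8 were again called lower. With the 17664 genes it was -0.39, Morc2a was called higher at 0.51, and Setdb1 at 0.15, Cbx5 at 0.06 and Mphosph8 at 0.29 were not. With plain ERCC sums it was 0.59, and with TMM-scaled ERCC totals 0.19. Under each of these settings Trim28 was the lowest of the 8 and Morc2a the highest, as a shared shift would leave them. Subtraction of background can change the order, and Trim28 and Morc2a stood at its ends there too. Subtraction left the rises of Setdb1 (0.52), Cbx5 (0.58), Mphosph8 (0.77) and Morc2a (0.98) and the fall of Trim28 called.

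**Figure D4:**
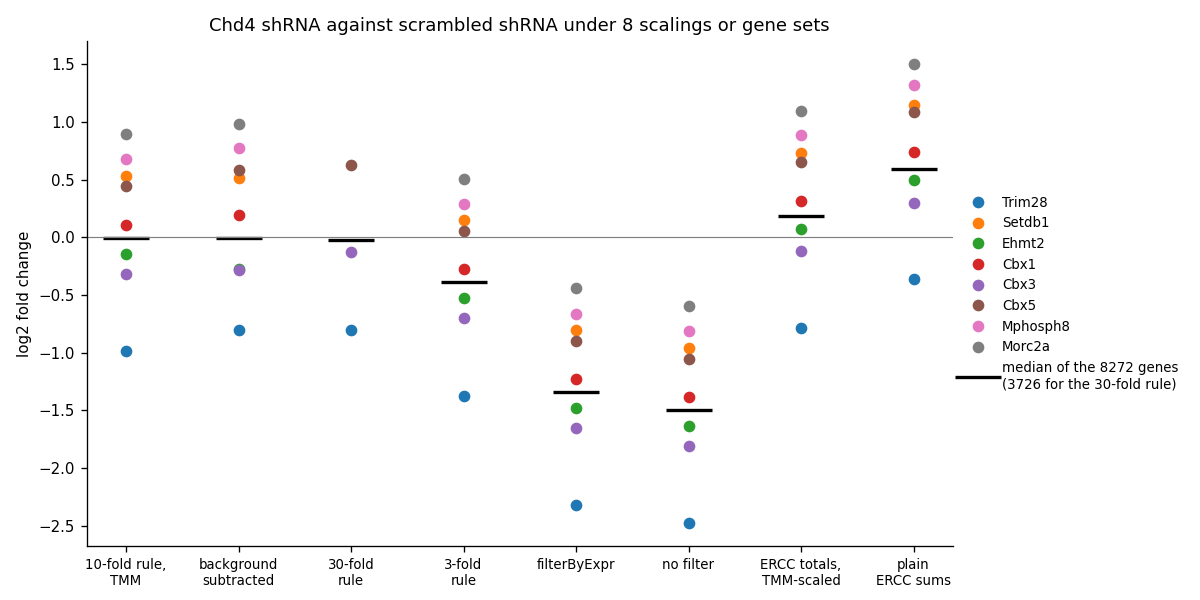
Log2 fold change with the Chd4 shRNA (y axis) of the 8 fitted genes under 8 scalings or gene sets (x axis). Coloured points are genes, and the black bar is the median of the 8272 genes (of 3726 for the 30-fold rule, which only Trim28, Cbx3 and Cbx5 pass). The points shift with the bar, with Trim28 lowest throughout.

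Ratios to Trim28 within a library put these changes side by side without any scale. Trim28 had 5.03 and 5.34 times the counts per kb of Setdb1 in the libraries labelled Chd4 shRNA, against 13.8 and 16.1 times in the scrambled ones. With BRM014 it had 14.8 and 13.6 times, against 14.2 and 14.6 times with DMSO. The Chd4 shRNA libraries lay far below the other 6, which overlapped each other. After background was subtracted the mean was 6.24 ± 0.35 (SD, n = 2) with the Chd4 shRNA, against 15.7 ± 1.95 with the scrambled shRNA.

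Against Morc2a, Trim28 stood at 3.19 and 3.51 times in the libraries labelled Chd4 shRNA, against 11.6 and 13.2 times in the scrambled ones. With BRM014 the mean was 12.4 ± 0.791, against 11.3 ± 0.0463 with DMSO (SD, n = 2). The ratio of Cbx3 to Cbx5 was 0.598 and 0.511 in the libraries labelled Chd4 shRNA, against 0.875 and 1.00 in the scrambled ones. With BRM014 it was 1.48 and 1.56, against 1.29 and 1.28 with DMSO. For 2 libraries against 2, an exact permutation test cannot give a two-sided p below 0.333, so these ratios carry no test of their own.

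**Figure D5:**
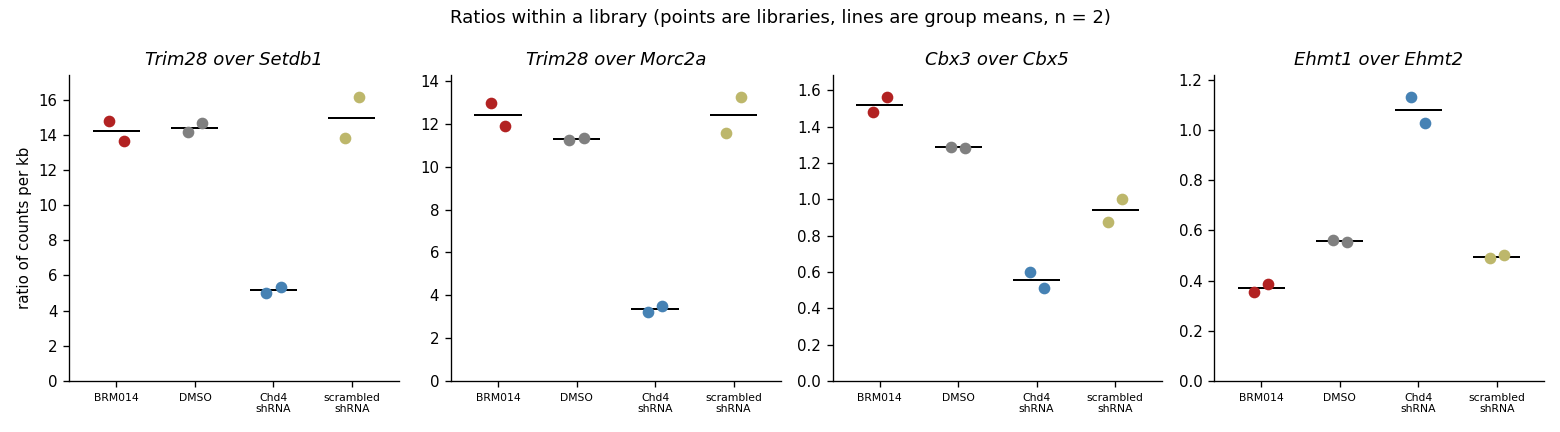
Ratio of counts per kb within a library (y axis, from 0) for 4 pairs of genes, by group (x axis). Points are libraries and lines are group means (n = 2). Both ratios of Trim28 are lowest, and Ehmt1 over Ehmt2 is highest, with the Chd4 shRNA, where Cbx3 over Cbx5 is also lowest.

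The effects of the 2 treatments were compared with each other by an interaction term, as the BRM014 change minus the Chd4 shRNA change. The treatments differ in kind and in length, 3 h against 24 h, and have separate controls. Of the 8 fitted genes 2 differed upward and 2 downward, beside 15.4% and 15.4% of all 8272 genes. Trim28 differed by 0.97 ± 0.20 (edgeR adjusted p = 0.000766), Cbx3 by 0.66 ± 0.19 (edgeR adjusted p = 0.0113), Setdb1 by -0.53 ± 0.19 (edgeR adjusted p = 0.0396) and Morc2a by -1.06 ± 0.19 (edgeR adjusted p = 0.000254). Trim28 and Morc2a kept their calls in each of the 8 fits that left out 1 library. The Trim28 difference was not called with plain ERCC sums (0.32) or TMM-scaled ERCC totals (0.86). That of Morc2a was not called with TMM-scaled ERCC totals (-1.16), nor with the default filter (0.34) or no filter (0.50), where its sign turned. Mphosph8, higher in both comparisons, differed by -0.18 ± 0.21, which was not called (edgeR adjusted p = 0.555). In the fit of 17664 genes, in which 19.1% differed upward and 18.1% downward, Ehmt1 differed by -0.96 ± 0.21 (edgeR adjusted p = 0.000354).

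The difference for Setdb1 was not called in 11 of 18 alternatives and was called in the opposite direction in 2, the default filter (0.86) and no filter (1.02). That for Cbx3 was not called in 6 of 19. For Setdb1 the value ran from -0.71 to -0.41 over the 8 fits that left out 1 library. It was not called without BRM014 r1 (-0.57) or r2 (-0.52), DMSO r2 (-0.43), Chd4 shRNA r1 (-0.57) or r4 (-0.53), or scrambled r3 (-0.41). For Cbx3 it ran from 0.50 to 0.79 and was not called without BRM014 r2 (0.65) or Chd4 shRNA r1 (0.64) or r4 (0.64).

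Several of the 10 genes share a start region with a neighbour, and the neighbours did not always follow. Tug1, a long noncoding RNA transcribed the other way from Morc2a, starts 482 bases from it, and the rows overlap by 483 bases. Tug1 stood at 4.47 and 4.72 CPM per kb in the libraries labelled Chd4 shRNA, against 3.41 and 2.86 in the scrambled ones. Its log2 change was 0.55 ± 0.17 (edgeR adjusted p = 0.0128), not called without Chd4 shRNA r4 (0.51) or scrambled r3 (0.43). With BRM014 it was 0.42 ± 0.16 and not called (edgeR adjusted p = 0.112), or 0.79 and called without DMSO r2 (edgeR adjusted p = 0.000323). The library kit keeps strand, but the strand setting of the counting is not given, so reads in the overlap may have gone to either gene.

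Hnrnpa1 and Hnrnpa2b1 encode RNA-binding proteins of pre-mRNA. Hnrnpa1 starts 616 bases from Cbx5 on the other strand and had a log2 change of -0.38 ± 0.15 with the Chd4 shRNA (edgeR adjusted p = 0.0463), where Cbx5 rose. It stood at 68.0 and 66.7 CPM per kb there, against 96.3 and 78.5 with the scrambled shRNA. That call was lost in 10 of 20 alternatives, among them the fits without BRM014 r1 (-0.38) or r2 (-0.34), Chd4 shRNA r1 (-0.37) or r4 (-0.36), and scrambled r1 (-0.20). Hnrnpa2b1 starts 466 bases from Cbx3 on the other strand and was at -0.03 ± 0.14 with the Chd4 shRNA (edgeR adjusted p = 0.867) and 0.31 ± 0.14 with BRM014 (edgeR adjusted p = 0.197). The rows of Setdb1 and the ceramide synthase gene Cers2 overlap by 75 bases at their far ends, and Cers2 was at -0.18 ± 0.15 with the Chd4 shRNA (edgeR adjusted p = 0.367). The row of Suv39h2 overlaps that of Dclre1c by 8316 bases on the other strand.

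Genes whose level ran most like Trim28 over the 8 libraries, by Euclidean distance of centred log2 CPM, were Fbxo15 (0.158), Jam2 (0.252) and Tubb5 (0.258). Their log2 changes with the Chd4 shRNA were -0.98 ± 0.14, -1.08 ± 0.14 and -1.11 ± 0.14. The other gene for which likeness was taken was Morc2a, which has the smallest p after Trim28 in the Chd4 comparison. Those most like it were Phf12 (0.158), Zc3h18 (0.166) and Pkp4 (0.176), with changes of 0.78 ± 0.14, 0.82 ± 0.14 and 0.78 ± 0.14. Likeness over 8 libraries mostly follows the groups.

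Other genes of the same pathways were taken as lists. Their counts of calls with the Chd4 shRNA are to be read beside the 19.4% higher and 20.5% lower over all 8272 genes. Of 11 recruiters, 5 were fitted, and 3 rose and 1 fell with the Chd4 shRNA, with a median change of 0.41. Zfp568, a KRAB zinc finger gene needed in mouse development, was at 1.01 ± 0.17 (edgeR adjusted p = 5.39e-05), with 9.44 and 9.56 CPM per kb in the libraries labelled Chd4 shRNA, against 5.64 and 3.76 in the scrambled ones. Zfp600, one of a cluster of like sequences among which reads may be split, was at 0.79 ± 0.13 (edgeR adjusted p = 6.20e-05) and Trim24, a relative of Trim28, at 0.41 ± 0.14 (edgeR adjusted p = 0.0198). Zfp57, which keeps imprints through Trim28, fell by 0.56 ± 0.15 on the log2 scale (edgeR adjusted p = 0.00381). Zfp57 was not called without Chd4 shRNA r1 (-0.45) or scrambled r1 (-0.41), nor Trim24 without Chd4 shRNA r1 (0.41) or r4 (0.42) or scrambled r3 (0.32).

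The SUMO pathway attaches the small protein SUMO to targets, Trim28 among them. Of its 10 genes 8 were fitted, and 0 rose and 3 fell with the Chd4 shRNA by edgeR, with a median of -0.25. At an unadjusted p under 0.05 and by DESeq2, 0 of these 8 were higher too. Sumo2, one of the modifiers, stood at 27.2 and 28.5 CPM per kb in the libraries labelled Chd4 shRNA, against 43.1 and 49.6 in the scrambled ones. Its log2 change was -0.74 ± 0.14 (edgeR adjusted p = 0.000192) and that of the activating subunit Uba2 -0.61 ± 0.14 (edgeR adjusted p = 0.00136). Both were called in each of the 8 fits that left out 1 library, and neither with ERCC library sizes. In the fit of 17664 genes, which held all 10 SUMO genes, 2 were called higher and 7 lower. Of all 17664 genes, 22.3% were called higher and 22.8% lower there.

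Of 9 HP1 partners 4 were fitted, and 1 rose and 1 fell. Adnp, a partner of HP1 and Chd4 in the ChAHP complex, was at 0.84 ± 0.15 (edgeR adjusted p = 0.000148), with 5.27 and 6.28 CPM per kb in the libraries labelled Chd4 shRNA, against 3.49 and 2.94 in the scrambled ones. Chaf1b, a subunit of chromatin assembly factor 1, fell by 0.42 ± 0.14 on the log2 scale (edgeR adjusted p = 0.0238). It was not called by DESeq2, nor without BRM014 r2 (-0.37), Chd4 shRNA r1 (-0.45) or r4 (-0.36), or scrambled r3 (-0.34).

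Of 11 H3K9 demethylases 3 were fitted, and 2 rose and 0 fell by edgeR, also at an unadjusted p under 0.05 and by DESeq2. Kdm4a was at 0.59 ± 0.17 (edgeR adjusted p = 0.00708) and Kdm1a at 0.37 ± 0.14 (edgeR adjusted p = 0.0351). Kdm4a was not called without Chd4 shRNA r4 (0.55) or scrambled r3 (0.36), nor Kdm1a without BRM014 r1 (0.37), Chd4 shRNA r1 (0.44) or r4 (0.33), or scrambled r3 (0.29). Of 6 other HUSH and MORC genes 2 were fitted, and 1, Resf1, a partner of Setdb1, rose at 0.60 ± 0.16 (edgeR adjusted p = 0.00504), but not without Chd4 shRNA r4 (0.44) or scrambled r3 (0.34). The 8 other methyltransferase and cofactor genes lay under 10-fold above background.

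In the fit of 17664 genes, of which 22.3% were called higher and 22.8% lower, 5 of these 8 were called higher and 0 lower by edgeR (0 lower also at an unadjusted p under 0.05, and DESeq2 was not run on this set). Their median was 0.45, beside 0.08 over all 17664. The 5 were Atf7ip, Atf7ip2, Zfp644, Zfp462 and Setdb2, named after their values were seen. Background would give 28.3% to 64.6% of their counts in the libraries labelled Chd4 shRNA, against 6.82% to 24.0% in the scrambled ones, and no fit with it subtracted was made for these genes. The call was lost without Chd4 shRNA r4 for Atf7ip (0.44), Zfp644 (0.39), Zfp462 (0.14) and Setdb2 (0.48), and without scrambled r3 for Zfp644 (0.42), Zfp462 (0.18) and Setdb2 (0.37). It was also lost for Setdb2 without Chd4 shRNA r1 (0.52), and for Zfp462 without BRM014 r1 (0.37) or r2 (0.40). With all 8 libraries and the 17664 genes, 3 of 9 recruiters were called higher and 1 lower with the Chd4 shRNA. Of 7 HP1 partners 3 were called higher and 1 lower, and of 10 demethylases 5 and 0. Of 4 HUSH and MORC genes 0 were called either way. Of the 10 genes of the first paragraph 2 were called higher and 3 lower, with a median of 0.06.

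With BRM014, edgeR called 0 of the 23 fitted genes of these lists and of the silenced genes described next, with 3 at an unadjusted p under 0.05 and 0 called by DESeq2. In the fit of 17664 genes it called 1 recruiter, Zfp445, and 1 HUSH gene, Tasor, lower, and 1 silenced gene, Sycp3 of the meiotic chromosome axis, higher. Sycp3 was counted 48 and 59 times with BRM014, against 26 and 44 times with DMSO, a log2 change of 0.81 ± 0.25 (edgeR adjusted p = 0.0393). It was not called without BRM014 r1 (0.73) or r2 (0.91) or DMSO r1 (0.57), nor Tasor without BRM014 r2 (-0.39) or DMSO r1 (-0.54). Zfp445 was not called without BRM014 r1 (-0.40) or r2 (-0.57), DMSO r1 (-0.43) or r2 (-0.51), or Chd4 shRNA r1 (-0.47) or r4 (-0.47).

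As for genes that this machinery keeps silent, 1 of 18 germline and early-embryo genes was fitted. That gene, Hormad1, was counted 44 and 34 times with the Chd4 shRNA, against 96 and 140 times with the scrambled shRNA, a log2 change of -1.09 ± 0.21 (edgeR adjusted p = 0.000208). Among the 17664 genes, which held 4 of the 18, Hormad1 was again called lower and Stk31, a germline kinase gene, higher. Stk31 was counted 87 and 97 times with the Chd4 shRNA, where background would give 21.9 and 23.3, against 32 and 32 times with the scrambled shRNA, where it would give 4.28 and 5.94. Its log2 change was 1.64 ± 0.21 (edgeR adjusted p = 4.78e-08), called in each of the 8 fits that left out 1 library. The 18 summed to 504 and 497 counts with the Chd4 shRNA, where background would give 270 and 288, against 344 and 430 with the scrambled shRNA, where it would give 52.8 and 73.2. With BRM014 they summed to 355 and 521, against 409 and 479 with DMSO.

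Cell identity markers moved in the same comparison. All 6 stem cell markers were fitted, and 5 fell with the Chd4 shRNA, with a median of -1.05, while 1, Klf4, fell with BRM014, though not without BRM014 r2 (-0.53). Their summed CPM was 426 and 457 in the libraries labelled Chd4 shRNA, against 826 and 880 in the scrambled ones, and 752 and 800 with BRM014, against 796 and 874 with DMSO. Fibroblast markers summed to 403 and 489 counts with the Chd4 shRNA, where background would give 291 and 309, and to 77 and 103 with the scrambled shRNA, where it would give 56.8 and 78.8. Endoderm markers summed to 225 and 233 counts, where background would give 191 and 203. With the scrambled shRNA they summed to 60 and 77, where background would give 37.3 and 51.7. Mesoderm and neural markers summed to 202 and 200, where background would give 180 and 191. In the scrambled libraries they summed to 92 and 105, where background would give 35.1 and 48.6. The ratio of counts to background was thus lower with the Chd4 shRNA for the endoderm markers and for the mesoderm and neural markers. For the fibroblast markers that ratio was higher with the Chd4 shRNA. No gene of these 3 lists reached 10-fold above background. The part of cell identity or of depth in the changes of the 10 genes was not tested. With background subtracted, the 5 calls with the Chd4 shRNA among the 8 fitted genes were kept, with the values given above.

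Level and length also moved with the Chd4 comparison. With the 8272 genes cut by level into 3 equal groups, the median change was 0.21 in the least abundant group, which holds Setdb1 and Ehmt2. It was -0.07 in the middle group, which holds Morc2a, Mphosph8 and the 3 HP1 genes, and -0.20 in the most abundant one, which holds Trim28. By length of exon, all 8 fitted genes lie in the longest of 3 equal groups, where the median was 0.11. With BRM014 these medians lay between -0.02 and 0.04.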

How the data were processed

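Nascent RNA was sequenced in 8 libraries of mouse embryonic stem cells, 2 in each of 4 groups taken from the sample labels. Run numbers r4 of the Chd4 shRNA and r3 of the scrambled shRNA are in no title, so these columns were placed by group name. The deposited values are whole read counts per gene for 55376 genes on mm10, with counts for 92 ERCC RNAs added per cell number per the labels' protocols. Per the submitters' processing notes, the authors used Trim Galore 0.6.4, STAR 2.7.1a, featureCounts and edgeR 3.32.1, with the strand setting and the handling of multiple alignments not given in the sources used here.

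From the deposited counts, edgeR 4.0.16 in R 4.3.3 was run on the 8272 genes whose mean count was at least 10-fold above background. Background was the counts per kb of 1435 receptor genes over 5334.1 kb of exon. TMM scaling, 1 fit of all 8 libraries and Benjamini-Hochberg adjustment at 0.05 followed, and each SE was derived from its F value. The code was tested on simulated data. DESeq2 1.42.0, other scalings, filters of 3-fold and 30-fold and fits leaving out 1 library were alternatives. The Trim28 and Morc2a choice for likeness, the genes and the lists were made with earlier results of these data known. All 10 genes, the list genes with the 4 smallest p-values, overlapping genes and divergent genes within 1 kb were named. One list gene that this rule names is not reported here. Zfp445, Tasor, Sycp3 and Stk31 were named after their values were seen. Promoter sequences are from RefSeq (GRCm38.p6).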

Additional observations from a re-analysis of the deposited data

Results flagged for a closer look

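For 5 of the 10 genes the change with BRM014 differed from the change with the Chd4 shRNA by the interaction term of the edgeR fit. The difference (BRM014 change minus Chd4 shRNA change, log2) was 0.97 for Trim28, 0.66 for Cbx3, -0.53 for Setdb1 and -1.06 for Morc2a among the 8272 genes, of which 15.4% differed upward and 15.4% downward, and -0.96 for Ehmt1 among the 17664, of which 19.1% differed upward and 18.1% downward. Setdb1 was not called in 11 of 18 alternatives and was called the opposite way in 2, and Cbx3 was not called in 6 of 19. Trim28 stood at 28.4 and 30.1 CPM per kb with the Chd4 shRNA, against 58.9 and 56.9 with the scrambled shRNA, while BRM014 and DMSO overlapped. Setdb1 and Morc2a rose with the Chd4 shRNA and were not called with BRM014. Cbx3 and Ehmt1 lay on opposite sides of their controls in the 2 comparisons. With background subtracted the difference was 0.78 for Trim28, 0.62 for Cbx3 and -1.15 for Morc2a, all called, and -0.52 for Setdb1, not called (edgeR adjusted p = 0.0685), while Ehmt1 was not in that fit. The 2 treatments lasted 3 h and 24 h, so the kind of treatment and its length cannot be told apart.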

How the results depend on the processing

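The fall of Trim28 and the rises of Morc2a and Mphosph8 with the Chd4 shRNA kept their direction and call in all 8 fits that left out 1 library, with background subtracted, with DESeq2 size factors and by DESeq2's own test. Trim28 also kept both under each filter tried. The settings that changed values most were those of the scale, and Cbx3 summed with its pseudogene rows changed no call. With background-level genes in the scale (edgeR's default filter, then no filter), Chd4 shRNA values were -0.36 and -0.52 for Ehmt1, -0.44 and -0.60 for Morc2a, -0.66 and -0.82 for Mphosph8, -0.80 and -0.96 for Setdb1, -0.89 and -1.05 for Suv39h2, -0.89 and -1.05 for Cbx5, and -1.23 and -1.38 for Cbx1. The differences between treatments (BRM014 minus Chd4 shRNA) were then 0.030 and 0.19 for Ehmt1, 0.34 and 0.50 for Morc2a, 0.86 and 1.02 for Setdb1, 1.05 and 1.21 for Cbx5, and 1.22 and 1.37 for Mphosph8. BRM014 values near 0 turned to 0.041 and 0.040 for Trim28 and 0.060 and 0.0595 for Setdb1.

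With the 3-fold filter Cbx1 was -0.28 with the Chd4 shRNA, Trim28 0.0072 and Setdb1 0.026 with BRM014, and the difference was 0.066 for Cbx5 and 0.23 for Mphosph8. With TMM-scaled ERCC totals Ehmt2 was 0.068 with the Chd4 shRNA, Trim28 0.073 and Setdb1 0.10 with BRM014, and the difference for Cbx1 was -0.054. With plain ERCC sums Cbx3 was 0.29 and Ehmt2 0.50 with the Chd4 shRNA, and the difference was -0.30 for Ehmt2 and -0.59 for Cbx1. With background subtracted Setdb1 was 0.0032 with BRM014 and the difference for Cbx1 -0.027. By DESeq2 Setdb1 was 0.00043 with BRM014. Leaving out 1 library gave ranges that crossed 0 for BRM014 in Trim28 (-0.15 to 0.11), Setdb1 (-0.11 to 0.10) and Cbx5 (-0.044 to 0.24), for the Chd4 shRNA in Ehmt2 (-0.34 to 0.11) and Suv39h2 (-0.020 to 0.082), and for the difference in Cbx1 (-0.065 to 0.16).

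Of the 8 fitted genes, 1 was called higher with BRM014. That count was 0 with plain ERCC sums, 0 with TMM-scaled ERCC totals, 0 by DESeq2, 0 with the 30-fold filter, and 0 to 2 leaving out 1 library. With the Chd4 shRNA 4 were called higher, but 0 with TMM-scaled ERCC totals, the default filter or no filter, 1 with the 3-fold or 30-fold filter, and 2 to 4 leaving out 1 library. The count lower was 1, but 0 with either ERCC scale, 8 with the default filter or no filter, 3 with the 3-fold filter, and 1 to 2 leaving out 1 library. The difference was called for 4, but for 1 with plain ERCC sums or the 30-fold filter, 0 with TMM-scaled ERCC totals, 7 with the default filter or no filter, and 2 to 5 leaving out 1 library.

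Over all fitted genes 641 were called with BRM014. The count was 104 with plain ERCC sums, 0 with TMM-scaled ERCC totals, 297 by DESeq2, 984 with the default filter, 1266 with the 3-fold and 257 with the 30-fold filter, and 227 to 1391 leaving out 1 library. With the Chd4 shRNA 3301 were called, 63 with TMM-scaled ERCC totals, 22627 with the default filter, 20618 with no filter, 7950 with the 3-fold and 1719 with the 30-fold filter, and 2176 to 3819 leaving out 1 library. For the difference 2545 were called, 1363 with plain ERCC sums, 24 with TMM-scaled ERCC totals, 16290 with the default filter, 15038 with no filter, 6581 with the 3-fold and 1384 with the 30-fold filter, and 1613 to 2966 leaving out 1 library. These filters change how many genes are tested, and other causes were not tested. Where 1 library of a group is left out, the lone library is assumed to vary like the other groups.

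With the replicate block for BRM014 and DMSO, 304 genes were higher and 450 lower, against 258 and 383 without it, and Setdb1 was 0.00096. The labels do not say that a number marks a shared batch, and the deviations of BRM014 r1 and DMSO r1 correlated at -0.24. A crossed block, added after seeing the data, gave 371 and 456, and 0.0062 for Setdb1. The Chd4 shRNA and scrambled columns share only number 1, so no block could be fitted there. The ERCC scale is uncertain because 86 of the 92 RNAs averaged under 100 counts. Depth is lowest and background highest in the Chd4 shRNA libraries, which limits Suv39h2, Ehmt1 and Ehmt2 most.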

Other observations

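The 2 control groups differed from each other in several of the 10 genes, although neither received BRM014 or the Chd4 shRNA. Trim28 stood at 57.9 ± 1.41 CPM per kb with the scrambled shRNA and 43.6 ± 5.16 with DMSO, and Cbx5 at 10.3 ± 1.24 and 7.70 ± 0.994 (SD, n = 2 each), without overlap. Setdb1 stood at 3.89 ± 0.514 with the scrambled shRNA and 3.02 ± 0.288 with DMSO, and Morc2a at 4.70 ± 0.560 and 3.86 ± 0.441. Cbx1 stood at 8.92 ± 0.443 and 7.66 ± 0.725, and Ehmt2 at 4.97 ± 1.02 and 3.96 ± 0.255. These genes did not overlap either. Suv39h2, Ehmt1, Mphosph8 and Cbx3 overlapped between the controls. How many of all fitted genes lay apart between the controls was not counted, so whether this is specific to the 10 is not known. Ranges of 2 libraries against 2 also lie apart often by chance. Lentivirus, puromycin and batch cannot be told apart here, and no test was made.

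In the fit of 17664 genes, Kdm7a, a histone demethylase gene, had the smallest p of the demethylase list with the Chd4 shRNA, at 1.34 ± 0.15 (edgeR adjusted p = 4.03e-09). It was chosen after its value was seen.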
